A study of Mus musculus with 4 samples.

Results

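The Hox genes were followed through the chromatin accessibility of mouse fetal liver at embryonic day 14.5, in wild-type (WT) animals and in animals in which Hemgn, the gene of the blood-cell nuclear protein hemogen, was knocked out (KO). The members were the 39 protein-coding genes of the Hoxa, Hoxb, Hoxc and Hoxd clusters, out of 21770 protein-coding genes used. Peaks were taken as members where the summit lay in a Hox gene or within 20 kb of a boundary of one. This gave 168 peaks in 4 libraries, which merged into 61 regions of the 55290 in the whole data set.

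Hox genes encode homeodomain transcription factors that give the body axis and limbs their regional identity. They lie in 4 clusters, and in each cluster the order of the genes along the chromosome matches the order of their use from head to tail, so that genes of low paralog number act anteriorly and those of high number posteriorly. Polycomb complexes keep unused Hox genes silent and trithorax (MLL) complexes keep used ones active. In blood, genes such as Hoxa9, Hoxa10 and Hoxb4 are known from stem and progenitor cells, and their use declines as cells mature along the red lineage, which fills the liver at this stage.

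ATAC-seq cuts accessible DNA with a transposase and sequences the fragments. The comparison had 2 WT and 2 KO libraries, each from fetal liver cells treated by the Omni-ATAC procedure. The labels give no sort, strain or sex, and they do not say which kind of allele the knockout was, whether it was confined to a cell type, or whether the replicates came from separate embryos. The spread between replicates may therefore be technical. The title of the study concerns hemogen acting together with BRG1, the ATPase of a chromatin remodelling complex.

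The lists held 47858 and 34181 peaks in WT replicates 1 and 2 and 35426 and 43018 in KO replicates 1 and 2. The background was lowest in WT replicate 2, at 2.29 fragments, beside 5.67 in WT replicate 1, 2.49 in KO replicate 1 and 3.8 in KO replicate 2. Each is the commonest value solved over sampled peaks of the list, and 29.6% to 44.8% of those peaks had it. Of 10 erythroid marker genes, 8 had a peak at a gene boundary in all 4 libraries, as had 4 of 8 hepatocyte, 5 of 7 stellate and mesenchymal, 4 of 6 stem and progenitor, 1 of 6 endothelial, 0 of 5 macrophage and 0 of 5 lymphoid markers. Of all protein-coding genes 55.4% had one in all libraries. Gata1, a defining erythroid factor, had none in any library. Hemgn itself had a boundary peak at fold percentiles of 33.0 and 28.0 in the WT lists and 35.5 and 34.3 in the KO lists, which does not check the deletion, since the deleted part is not stated. The liver was measured as a mixture, so fewer cells of a type and less accessible DNA per cell cannot be told apart.

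The sequences in front of 7 transcription starts are shown as examples of Hox starts with and without a peak. They are the 250 bases before the start, written 5′ to 3′ on the strand of the gene, with each CpG dinucleotide in capitals. For each cluster with genes of both kinds the start of highest peak percentile is given, and beside it the most anterior gene with no peak within 1 kb of its start in any library; genes with several starts were passed over. They are not the full range: starts with a peak in all libraries had 6 to 35 CpG in these bases, and starts with none had 2 to 24. Hoxc is shown by Hoxc4, its only gene in the promoter table. Sequences and their positions are from RefSeq, assembly GRCm38.p6, which holds 24 starts of 22 Hox genes. In the Hoxa cluster these are Hoxa5 (chr6:52204588-52204837, minus strand, peak in all 4 libraries, 28 CpG) and Hoxa2 (chr6:52164832-52165081, minus strand, no peak, 6 CpG).
Hoxa5: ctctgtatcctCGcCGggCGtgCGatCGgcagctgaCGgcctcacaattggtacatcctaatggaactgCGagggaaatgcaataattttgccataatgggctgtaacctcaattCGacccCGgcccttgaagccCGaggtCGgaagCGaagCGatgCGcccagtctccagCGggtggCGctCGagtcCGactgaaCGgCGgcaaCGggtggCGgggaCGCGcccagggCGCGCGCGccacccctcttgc
Hoxa2: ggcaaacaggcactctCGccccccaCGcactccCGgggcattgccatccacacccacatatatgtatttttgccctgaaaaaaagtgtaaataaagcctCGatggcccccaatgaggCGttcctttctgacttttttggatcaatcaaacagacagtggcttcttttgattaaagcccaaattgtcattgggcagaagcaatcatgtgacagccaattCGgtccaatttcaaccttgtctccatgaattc

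In the Hoxb cluster they are Hoxb4 (chr11:96318017-96318266, plus strand, peak in all 4 libraries, 14 CpG) and Hoxb1 (chr11:96365508-96365757, plus strand, no peak, 7 CpG). Hoxc4 (chr15:103034145-103034394, plus strand) had no peak and 8 CpG.
Hoxb4: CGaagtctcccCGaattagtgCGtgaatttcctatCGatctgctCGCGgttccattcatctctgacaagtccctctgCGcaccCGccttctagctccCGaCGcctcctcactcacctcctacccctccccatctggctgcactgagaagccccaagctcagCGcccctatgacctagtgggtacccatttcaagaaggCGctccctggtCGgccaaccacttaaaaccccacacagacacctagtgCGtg
Hoxb1: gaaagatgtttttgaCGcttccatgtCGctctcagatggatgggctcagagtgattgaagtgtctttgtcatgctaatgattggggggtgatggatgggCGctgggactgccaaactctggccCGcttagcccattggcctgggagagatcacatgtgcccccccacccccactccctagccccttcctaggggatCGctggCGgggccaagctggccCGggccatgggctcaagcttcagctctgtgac
Hoxc4: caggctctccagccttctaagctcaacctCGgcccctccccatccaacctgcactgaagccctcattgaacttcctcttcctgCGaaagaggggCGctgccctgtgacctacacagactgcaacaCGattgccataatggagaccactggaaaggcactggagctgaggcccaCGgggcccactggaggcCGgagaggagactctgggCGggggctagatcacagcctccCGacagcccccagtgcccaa

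In the Hoxd cluster they are Hoxd13 (chr2:74667975-74668224, plus strand, peak in all 4 libraries, 31 CpG) and Hoxd4 (chr2:74721728-74721977, plus strand, no peak, 3 CpG).
Hoxd13: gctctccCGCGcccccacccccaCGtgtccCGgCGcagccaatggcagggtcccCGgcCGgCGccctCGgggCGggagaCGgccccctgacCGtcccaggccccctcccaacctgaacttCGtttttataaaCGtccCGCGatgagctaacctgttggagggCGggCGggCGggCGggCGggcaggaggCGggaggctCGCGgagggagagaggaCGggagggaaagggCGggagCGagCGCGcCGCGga
Hoxd4: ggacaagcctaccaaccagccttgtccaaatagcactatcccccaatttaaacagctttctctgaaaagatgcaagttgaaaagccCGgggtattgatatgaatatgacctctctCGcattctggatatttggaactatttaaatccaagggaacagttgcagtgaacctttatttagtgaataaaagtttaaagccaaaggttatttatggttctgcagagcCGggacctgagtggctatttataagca

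The Hox clusters held many peaks for their length, and the peaks were low and narrow for their lists. Hox windows held 7.77 and 4.70 peaks per 100 kb in WT replicates 1 and 2 and 7.29 and 7.45 in KO replicates 1 and 2. Windows of the same kind around all protein-coding genes held 2.96 and 2.14 in the WT lists and 2.21 and 2.65 in the KO lists. Hox windows are also crowded with genes, at 6.32 per 100 kb against 1.52. Counted per gene, they held fewer regions, 1.56 against 2.23. No test was made of this difference, since the peaks of a library are not replicates.

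The percentile used from here on is the rank of a peak by fold enrichment within its list, in percent of the list, with tied peaks at their mean rank. Fold enrichment is the authors' own ratio at the summit over the local background, read here as having 1 added to both. The median Hox peak had a percentile of 34.7 in WT replicate 1, 26.9 in WT replicate 2, 33.9 in KO replicate 1 and 35.0 in KO replicate 2. Peaks around all genes had medians between 51.0 and 51.5. No Hox peak in any list reached the 90th percentile, and the highest in each list lay at 76.3, 77.9, 72.4 and 79.1. Of the 168 peaks, 49 (29.2%) lay above the 50th percentile and 64 (38.1%) at or below the 25th. Fold at Hox peaks ran from 2.35 to 11.2, and the median number of fragments under a Hox summit was 26.5, 14, 17 and 22.5 in the 4 libraries, in the order WT replicate 1, WT replicate 2, KO replicate 1, KO replicate 2. Values for the 4 libraries are given in this order below.

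**Figure D1:**
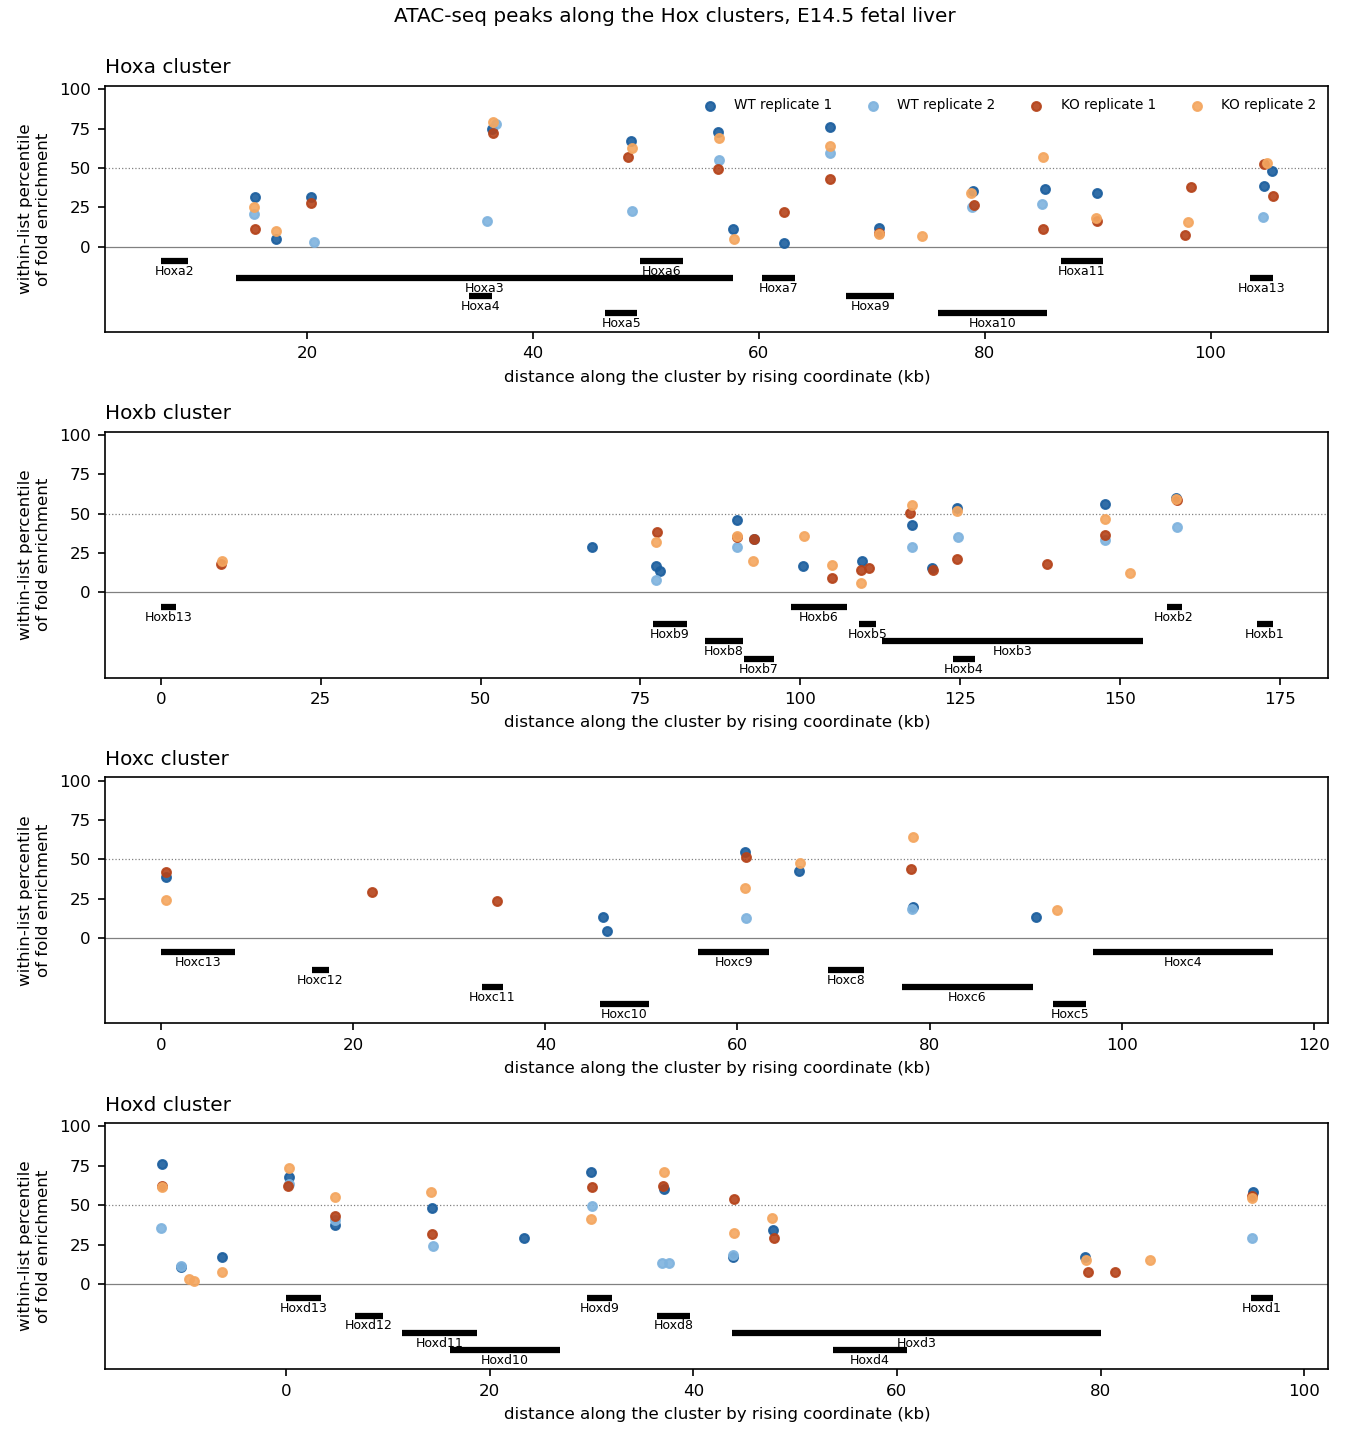
Hox peaks of the 4 libraries by distance along its cluster in kb (horizontal axis) and within-list percentile of fold (vertical axis), with black bars below for the Hox genes (1 shared Hoxa region is not drawn). Points sit mostly below the dotted line at the 50th percentile, the highest group is at Hoxa4, and the Hoxc panel has the fewest points.

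WT replicate 1 had 48 Hox peaks and WT replicate 2 had 29, while the KO libraries had 45 and 46. WT replicate 2 alone was low, and the groups overlapped. The mean was 38.5 ± 13.4 (SD, n = 2) in WT and 45.5 ± 0.707 (SD, n = 2) in KO, a difference of 7 peaks (exact two-sided permutation test, p = 1). With 2 libraries against 2 there are 6 relabelings and the smallest p is 0.333, so no library value could pass a threshold. Without WT replicate 2 the difference was -2.5 peaks, and without WT replicate 1 it was 16.5. Per 1000 peaks of the list the counts were 1.003, 0.848, 1.27 and 1.07, with both KO values above both WT values (difference 0.244, exact p = 0.333). With lists of equal length there were 31, 29, 45 and 31 Hox peaks, KO replicate 2 then equalling WT replicate 1 (exact p = 0.667).

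The median percentiles of the genotypes overlapped. The WT mean was 30.8 ± 5.48 and the KO mean 34.5 ± 0.784 (SD, n = 2 for either), a difference of 3.66 percentile points (exact p = 0.667). Leaving out WT replicate 2 gave -0.217 and leaving out WT replicate 1 gave 7.54, and the difference was -8.16 when only peaks with a fold of at least 6 were kept. With all lists brought to the length of the shortest, the WT medians of 27.1 and 26.9 and the KO medians of 31.5 and 40.7 did not overlap (difference 9.10, exact p = 0.333).

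The median width of a Hox peak was 385.5 and 389 bp in WT and 474 and 508.5 bp in KO, and here the groups did not overlap. The means were 387 ± 2.47 and 491 ± 24.4 bp (SD, n = 2 each), 104 bp apart, with exact p = 0.333, the smallest possible. The groups overlapped with lists of equal length, at 607, 389, 474 and 683 bp (exact p = 0.667), and at a fold of at least 6, at 946, 646, 776.5 and 887 bp (exact p = 1). Widths around all genes did not follow this order, at 570, 650, 664 and 626 bp, and peak width within the lists placed the median Hox peak at width percentiles of 32.0, 28.2, 35.8 and 42.5. The bases under Hox peaks were 25458, 13439, 25245 and 26664 (exact p = 0.667).

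**Figure D2:**
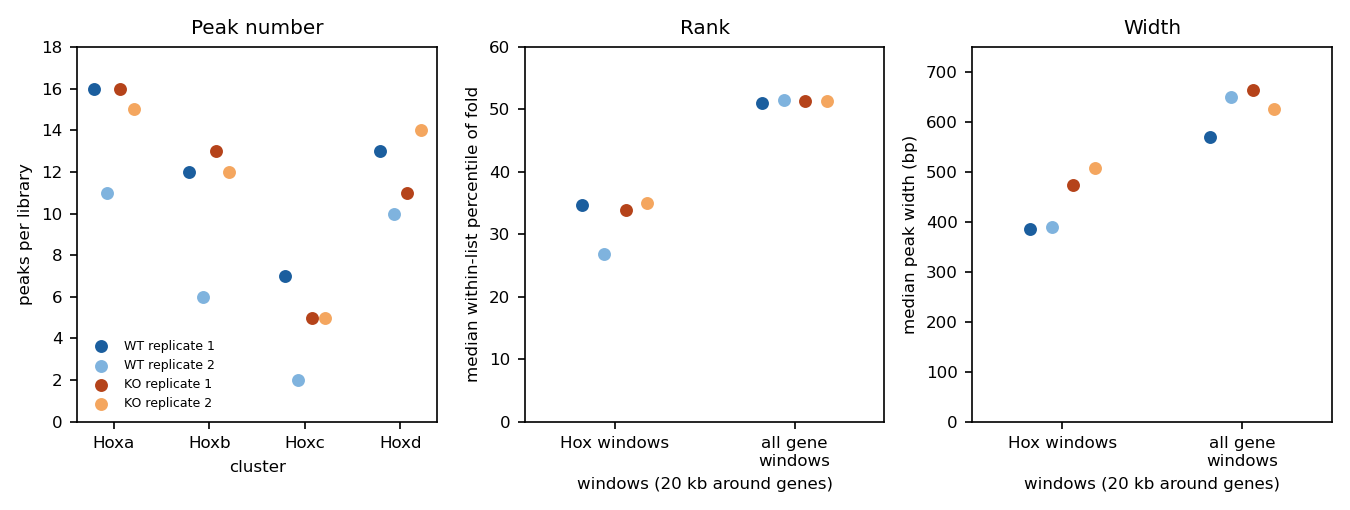
Values of the 4 libraries, 1 point each: peaks in each cluster (left), median within-list percentile of fold (middle) and median peak width in bp (right), the last 2 in Hox windows and in the windows of all protein-coding genes. WT replicate 2 has the fewest peaks in every cluster, Hox medians of 26.9 to 35.0 lie under the 51.0 to 51.5 of all genes, and Hox widths of 385.5 and 389 bp in WT lie under 474 and 508.5 bp in KO.

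Of the 61 regions, 25 (41.0%) had a peak in all 4 libraries, against 49.7% of all regions. A further 7 had peaks in 3 libraries, and all 7 lacked one in WT replicate 2. In 12 regions there were peaks in 2 libraries. Peaks in a lone library were seen in 17 regions, against 25% of all regions. These were 5 in WT replicate 1, 1 in WT replicate 2, 5 in KO replicate 1 and 6 in KO replicate 2, none above a percentile of 29.1, with a median length of 267 bp. The 25 shared regions had a median length of 916 bp, beside 949 bp for all shared regions. Inside a Hox gene lay 44 of the 61 regions, and 23 lay within 1 kb of a Hox gene boundary, 13 of them shared by all libraries. The farthest member from a Hox gene was a shared region 12.4 kb from Hoxd13, and the nearest peak beyond the 20 kb limit lay 23.999 kb from Hoxc4, in KO replicate 1 alone, at a percentile of 7.41.

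The clusters differed in how many of their regions were shared. Hoxa, on chromosome 6, had 18 regions around 11 genes, 9 of them in all 4 libraries. Hoxd, on chromosome 2, had 17 around 9 genes, 8 of them shared. Hoxb, on chromosome 11, had 16 around 10 genes, 6 of them shared. Hoxc, on chromosome 15, had 10 around 9 genes, and 2 were shared while 6 were in a lone library. Regions per 100 kb were 12.4 in Hoxa and in Hoxd, 8.93 in Hoxb and 6.42 in Hoxc. Regions of a cluster are not replicates, and the difference between clusters was not tested.

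Peaks per library were 16, 11, 16 and 15 in Hoxa (exact p = 1) and 12, 6, 13 and 12 in Hoxb (exact p = 0.667). In Hoxc they were 7, 2, 5 and 5 (exact p = 1), and in Hoxd 13, 10, 11 and 14 (exact p = 0.667). WT replicate 2 had the fewest in every cluster. Its 2 peaks in Hoxc, at percentiles of 13.1 and 18.6, covered 661 bp, against 2938 to 3141 bp in the other libraries. Regions below are numbered within a cluster by rising coordinate, and their coordinates are those of the peak lists, counted from 1. No source used here names their genome build. A gene boundary of the GRCm38.p6 table was found within 1 kb of 27.8% to 35.3% of summits, against 6.66% to 7.31% after the table was shifted by 5, 20 or 50 kb.

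In the Hoxa cluster the strongest region of all was region 6 (chromosome 6, 52191054 to 52192410). Its summit lay 350 bp from a boundary of Hoxa4, an anterior gene of the cluster, and within the long span that the gene table gives to Hoxa3. Percentiles were 74.4, 77.9, 72.4 and 79.1, from 64, 40, 37 and 64 fragments at the summit, and the peak was 1351, 532, 1154 and 1187 bp wide. The 4 percentiles lay within 6.74 points, the narrowest range of any shared Hox region, and the genotypes overlapped.

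Region 8 (52211330 to 52212187) lay between Hoxa6 and Hoxa7 in the Hoxa3 span, at percentiles 72.8, 55.3, 49.1 and 68.9. The widest region of the cluster was region 7 (52203246 to 52204672, 1427 bp), inside Hoxa5, a gene of lung and axial patterning. It lay at 67.3, 22.6, 56.9 and 62.5, with WT replicate 2 far below the rest. Region 11 (52221385 to 52222014), 1.34 kb from Hoxa9, the Hoxa gene best known from blood progenitors and leukemia, ranked just below region 8. Its percentiles of 76.1, 59.4, 42.8 and 63.8 came from 94, 40, 38 and 64 fragments, and its KO mean was 14.5 points below its WT mean, the lowest difference of the shared Hox regions. KO replicate 1 was lowest, KO replicate 2 lay between the WT values, and the groups overlapped.

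In the Hoxb cluster the strongest region was region 16 (chromosome 11, 96352692 to 96353602), inside Hoxb2, a hindbrain gene, at 60.1, 41.5, 58.8 and 59.6. Region 14 (96341711 to 96342216) lay inside the long Hoxb3 span, at 56.0, 33.5, 36.3 and 46.4. Both had their lowest value in WT replicate 2 and overlapping groups. Hoxb4, a gene that expands blood stem cells when forced on, had its peak (region 12, 96318446 to 96319301) at 53.6, 35.4, 21.5 and 52.0. Here KO replicate 1 was lowest, and replicates of a genotype lay farther apart than the genotypes did.

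In the Hoxc cluster only regions 6 and 8 were in all libraries. Region 6 (chromosome 15, 102981645 to 102982240), inside Hoxc9, a posterior gene, lay at 54.9, 13.1, 51.3 and 32.1. Region 1 (102921184 to 102922183) at Hoxc13, the last gene of the cluster and known from hair and nail, lay at 38.7 in WT replicate 1, 42.0 in KO replicate 1 and 24.3 in KO replicate 2, with no peak in WT replicate 2.

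In the Hoxd cluster region 6 (chromosome 2, 74668012 to 74668837), 211 bp from a boundary of the digit gene Hoxd13, was strongest, at 67.6, 63.2, 61.9 and 73.4. Its summit lay 211 bp from the Hoxd13 start too, whose upstream bases with 31 CpG are printed above. Region 1 (74655518 to 74656485) lay inside Evx2, the homeobox gene next to Hoxd13, at 76.3, 35.2, 62.5 and 61.6, with both WT libraries outside the range of the KO libraries, 1 on each side. Region 10 (74697557 to 74698782, 1226 bp, the widest of the cluster), inside Hoxd9, lay at 70.9, 49.7, 61.3 and 41.3. In all, 4 regions with 8 peaks lay inside Evx2, which is not a Hox gene.

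A WT-only region has a peak in both WT libraries and neither KO library, and a KO-only region the opposite. Among Hox regions 1 was WT-only, against 2.2% of all regions, and 3 were KO-only, against 1.41%. The WT-only region was Hoxd region 2 (chromosome 2, 74657746 to 74657980), inside Evx2, at percentiles of 10.9 and 11.7. No WT-only region was left without Evx2. The KO-only regions were Hoxa region 17 (chromosome 6, 52252993 to 52253734), 5.73 kb from Hoxa13, at 38.2 and 15.5, Hoxb region 1 (chromosome 11, 96203511 to 96204024), 7.21 kb from Hoxb13, at 18.3 and 19.9, and Hoxb region 7 (96299194 to 96299473), inside Hoxb6, at 9.1 and 17.2. All 4 regions lay over 1 kb from a Hox gene boundary and rested on 12 to 23 fragments. Leaving out WT replicate 2 gave 6 WT-only regions, and leaving out WT replicate 1 gave 2. There were 10 KO-only regions without WT replicate 1, 9 without KO replicate 1, 9 without KO replicate 2 and 1 when the lists were brought to equal length. Leaving out a library loosens both rules, so the counts without a library could rise or hold. The shares of all regions under the looser rules are not given.

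In the 25 regions present in all libraries, percentiles were compared directly. Both KO values lay above both WT values in 7 (28%), against 9.98% of all shared regions, and both lay below in 0, against 13.6%. The KO mean was higher in 16 of the 25 (64%), against 43.7% of all shared regions. The median difference was 6.30 percentile points, from -14.5 to 34.7, and -0.578 over all shared regions. The median range over the 4 libraries was 29.6 points (6.74 to 57.8) in Hox regions, against 13.8 for all. The set of all shared regions was not matched to the Hox regions for rank. Among genes with a boundary peak in all libraries the median percentile was 50.5 for Hox and 82.9 for all. Any part of rank in the ranges and shares given here was not tested. WT replicate 2 was the lowest library in 14 of the 25 (56%), against 48.8% of all. The count of 7 became 16 without WT replicate 1, 11 without KO replicate 1 and 8 without KO replicate 2, and stayed 7 without WT replicate 2. Leaving out a library loosens the rule, so these counts could rise or hold and do not check the 7. The shares over all shared regions given above do not apply to them. Regions shared by the libraries used numbered 32 without WT replicate 2 and 25 without any of the others. With lists of equal length the count was 7 of 22 shared regions. These counts have no test, since regions of a library are not replicates.

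**Figure D3:**
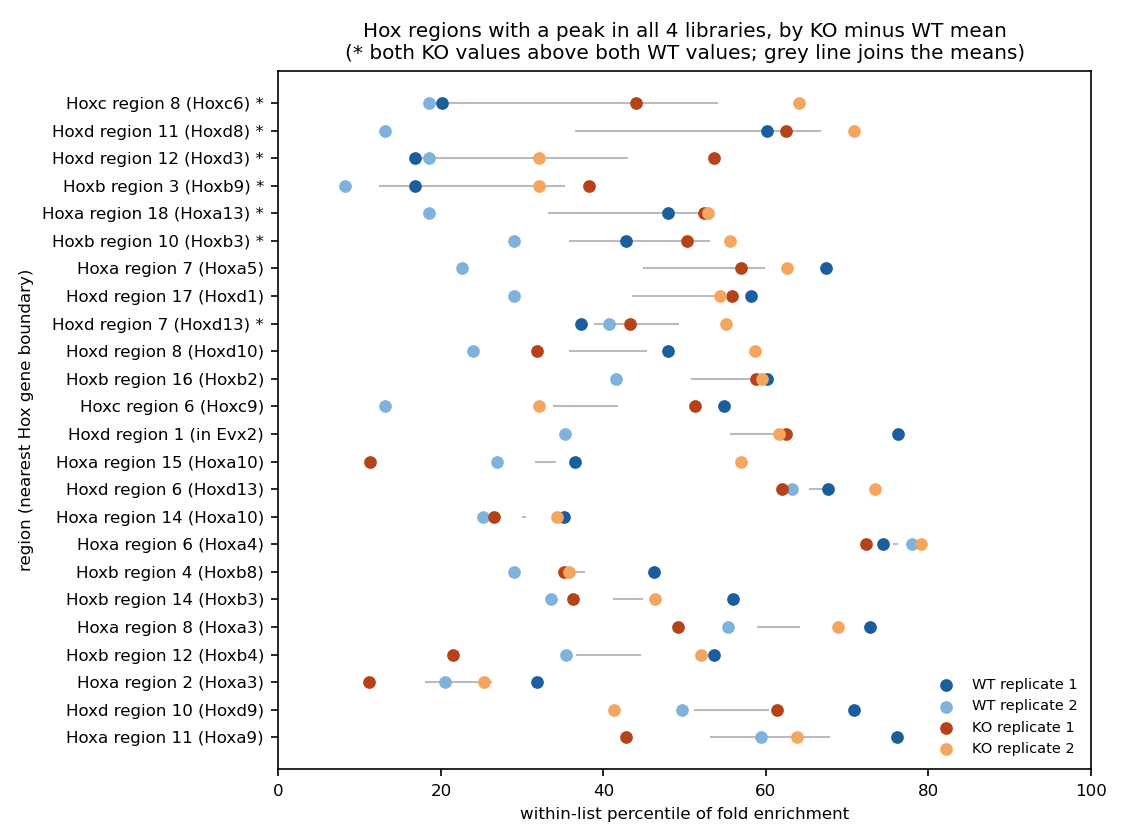
Within-list percentile of fold (horizontal axis) in each of the 4 libraries for 24 of the 25 Hox regions shared by all, ordered by KO minus WT mean, with a grey line joining the means and a star where both KO values exceed both WT values. The 7 starred regions are among the top 9 rows, and the light blue points of WT replicate 2 are the lowest in 14 rows.

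The 7 regions came from all 4 clusters. The largest difference was in Hoxc region 8 (chromosome 15, 102998789 to 102999877, the widest of Hoxc at 1089 bp), inside Hoxc6, a gene of the thoracic level. It lay at 20.1 and 18.6 in WT and at 44.0 and 64.1 in KO, a difference of 34.7 points. The fragments at its summit were 21, 12, 18 and 33, so that KO replicate 1 lay between the WT libraries. The backgrounds of the libraries were 5.67, 2.29, 2.49 and 3.8 fragments in the same order. The peak was 508 and 384 bp wide in WT and 914 and 1023 bp in KO.

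Hoxd region 11 (chromosome 2, 74704742 to 74705935), inside Hoxd8, lay at 60.1, 13.1, 62.4 and 70.8, a difference of 30.0 points that rests on WT replicate 2. Hoxd region 12 (74711862 to 74712475), 152 bp from Hoxd3, lay at 16.8, 18.6, 53.6 and 32.1, a difference of 25.2. Hoxb region 3 (chromosome 11, 96271462 to 96272441, the widest of Hoxb at 980 bp), at Hoxb9, lay at 16.8, 8.2, 38.2 and 32.1, a difference of 22.6. At Hoxd3 and Hoxb9 both WT libraries were low, as at Hoxc6. These were regions of few fragments: 20, 12, 21 and 19 at Hoxd3, and 20, 10, 16 and 19 at Hoxb9.

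Hoxa region 18 (chromosome 6, 52259680 to 52261028) at Hoxa13, a gene of digits and the urogenital tract, lay at 47.9, 18.6, 52.4 and 52.9, a difference of 19.4. Hoxb region 10 (96311255 to 96312171), inside Hoxb3, lay at 42.8, 29.0, 50.3 and 55.5, a difference of 17.0. Hoxd region 7 (chromosome 2, 74672786 to 74673219), 1.47 kb from Hoxd13, lay at 37.2, 40.7, 43.3 and 55.1, a difference of 10.3. In 2 of the 7 regions, those at Hoxc6 and Hoxb9, the gap between the nearest WT and KO library exceeded both gaps between replicates, and in the other 5 it did not. Boundary peaks in both KO and in neither WT library were seen at 2 of 5 lymphoid (Cd79b and Blnk) and 1 of 6 endothelial (Pecam1) markers. The share of all protein-coding genes was 0.294%. By the same measure the count was 0 among the 39 Hox genes. It was also 0 among the erythroid, hepatocyte, stellate and mesenchymal, macrophage, and stem and progenitor markers. Any part of lymphoid or endothelial cells in the Hox values was not tested.

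Seen by gene, a Hox gene was counted in a library when a summit lay within 1 kb of either boundary. In this sense 14 of 39 genes (35.9%) had a boundary peak in all 4 libraries, against 55.4% of all protein-coding genes, and 16 (41.0%) had none in any, against 36.6%. The genes with a boundary peak numbered 21, 14, 19 and 19. The WT libraries averaged 17.5 ± 4.95 and the KO libraries 19 ± 0 (SD, n = 2 for either), a difference of 1.5 genes (exact p = 1). Leaving out WT replicate 2 gave -2, and leaving out WT replicate 1 gave 5. No Hox gene had its peak in both libraries of a genotype and neither of the other, against 0.303% of all genes for WT and 0.294% for KO.

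The genes counted in all libraries were, from anterior to posterior, Hoxd1, Hoxb2, Hoxd3, Hoxa4, Hoxb4, Hoxa5, Hoxa6, Hoxb8, Hoxd8, Hoxb9, Hoxd9, Hoxa10, Hoxa13 and Hoxd13. Hoxa5 and Hoxa6 shared a peak. Paralog groups 1 to 4, which pattern the hindbrain and neck, had 5 of 12 genes in this class. Groups 5 to 8, of the thoracic levels, had 4 of 11. Groups 9 to 13, of the lumbar levels, limbs and genitalia, had 5 of 16. By cluster it was 5 of 11 in Hoxa, 4 of 10 in Hoxb, 0 of 9 in Hoxc and 5 of 9 in Hoxd.

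The median over the 14 genes of the mean percentile was 50.5, against 82.9 over the 12062 protein-coding genes with a boundary peak in all libraries. Beyond the genes described by region, Hoxd1, an anterior gene of sensory neurons, lay at 58.2, 29.0, 55.9 and 54.4. Hoxb8, a gene known from myeloid progenitors, lay at 46.3, 29.0, 35.1 and 35.8. Hoxa10 lay at 36.5, 26.9, 11.3 and 56.9, the KO replicates being the lowest and the highest of the 4. Both KO values lay above both WT values at 4 of the 14, against 12.6% of all such genes, and these were Hoxa13, Hoxb9, Hoxd3 and Hoxd8. Their peaks are those of shared regions already counted above with KO over WT, so this is not a separate finding. Both lay below at 0, against 11.8%.

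In 3 libraries there was a peak at Hoxa11 (34.2, 16.1 and 18.3), Hoxb5 (20.1, 14.1 and 5.93) and Hoxc13, each time without WT replicate 2. Hoxa3 had a peak in WT replicate 1 (11.3) and KO replicate 2 (4.90), and Hoxa7 in WT replicate 1 (2.47) and KO replicate 1 (22.1). A lone library had a peak at Hoxc5 (18.2, KO replicate 2), Hoxc6 (13.4, WT replicate 1), Hoxc10 (13.4, WT replicate 1) and Hoxc11 (23.8, KO replicate 1). All but Hoxc13 of these 9 genes stayed at or below a percentile of 34.2 in each library. Among the genes with no boundary peak in any library were Hoxa2, Hoxa9, Hoxb1, Hoxb3, Hoxb6, Hoxb7, Hoxb13, Hoxc4, Hoxc8, Hoxc9, Hoxc12, Hoxd4, Hoxd10, Hoxd11 and Hoxd12. Of these, Hoxa2, Hoxb1, Hoxb13, Hoxc4, Hoxc8, Hoxc12, Hoxd4 and Hoxd12 had no summit inside the gene either.

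**Figure D4:**
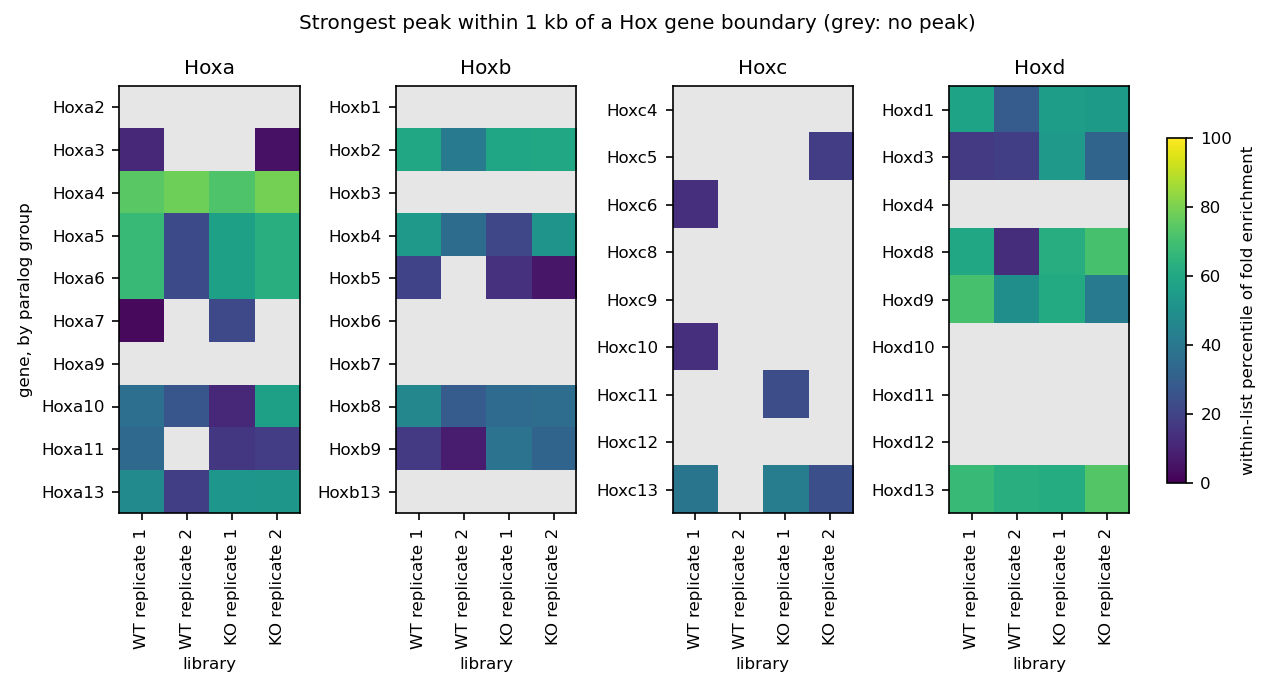
Heat maps of the 4 clusters, with genes in rows by paralog number, the 4 libraries in columns and the within-list percentile of fold of the strongest boundary peak as colour, grey where no peak was listed. The rows of Hoxa4 and Hoxd13 are above 60 in all columns, and no Hoxc row is filled in all 4.

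The promoter table allowed the same view from transcription starts. Of 24 starts, 11 (45.8%) had a peak within 1 kb in all libraries, against 43.1% of all starts, 4 had one in some libraries and 9 in none. The gene boundary and the start did not always match: the Hoxa6 and Hoxb8 peaks lay away from the start listed, and an inner start of Hoxd11 had a peak in all libraries (47.9, 23.9, 31.8 and 58.7) although no boundary of the gene had. The median number of CpG in the 250 bases before the start was 20 at the 11 starts with a peak in all libraries, 15.5 at the 4 and 7 at the 9. The corresponding medians over all starts of the table were 17 with a peak in all libraries and 2 with none. The ranges overlapped, from 6 to 35 CpG with a peak and from 2 to 24 without: Hoxd8 had a peak with 6 CpG, and Hoxa6 had none with 24. Each gene is 1 sequence, and no test was made.

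**Figure D5:**
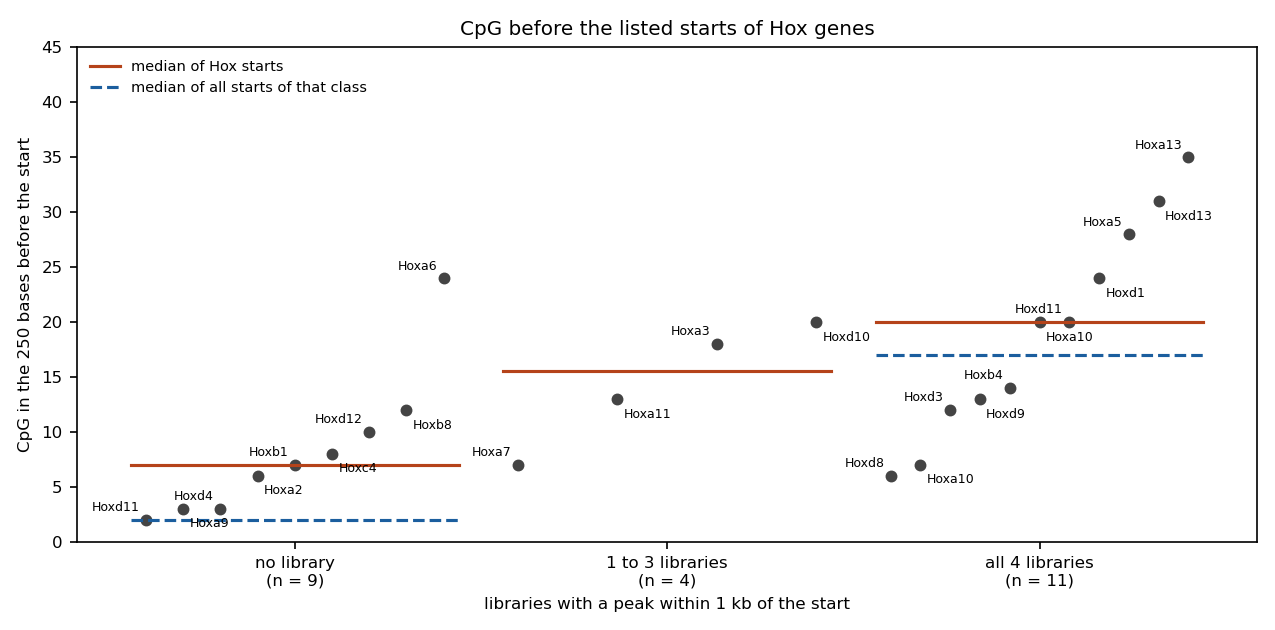
CpG dinucleotides in the 250 bases before each of 24 Hox starts (vertical axis), by the number of libraries with a peak within 1 kb (horizontal axis), with solid lines at the Hox medians and dashed lines at the medians of all starts in the all-library and no-library classes. The Hox medians are 7, 15.5 and 20, and Hoxa6, at 24, is the highest of the class with no peak.

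Short motifs were searched by their letters on both strands of these 250 bases, where matches of different motifs may overlap. The GATA letters AGATAA were at 0 of 24 Hox starts, against 9.99% of all starts. The Hox-Pbx letters TGATNNAT were at 4 (16.7% against 7.69%), namely Hoxa2, Hoxb1, Hoxb8 and the inner start of Hoxd11. The Meis letters TGACAG were at 2 (8.33% against 15.9%), Hoxa2 and Hoxa3, and the TATA box letters TATAAA were at 4 (16.7% against 12.4%). These are letter matches in a short window and not sites.

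Genes that work with Hox proteins or act on the clusters were read in the same way, beside 55.4% of all protein-coding genes with a boundary peak in all libraries, and 12.6% and 11.8% of those with both KO values above or below both WT values. Of 9 TALE cofactor genes (Meis, Pbx and Pknox, which bind DNA together with Hox proteins) 8 had a boundary peak in all libraries, with a median of 73.5, and both KO values lay above both WT values at 0 and below at 2. Meis1 lay at 56.5, 30.1, 49.9 and 41.4. Of 20 Polycomb genes 19 were in this class (median 80.0), and both KO values lay above both WT values at 1 and below at 2. Of 16 trithorax and MLL genes 12 were in it (median 85.2), with 0 above and 4 below. Kmt2a, the MLL1 methyltransferase that maintains Hox expression in blood, lay at 80.1, 71.3, 59.7 and 68.6, both KO values below both WT values.

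Of 8 boundary and loop genes 5 were in it, Ctcf at 86.9, 82.3, 81.9 and 87.0. The Cdx genes, which switch on central and posterior Hox genes, were not: Cdx1 had a peak in the WT libraries only (22.2 and 3.53), Cdx2 in 3 libraries (53.6, 39.9 and 35.8, none in WT replicate 2) and Cdx4 in none. Among 15 non-coding genes of the clusters, 2 had a boundary peak in all libraries, among them Hoxb3os (60.1, 41.5, 58.8 and 59.6, the Hoxb2 peak). Mir10a and Mir10b had none.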

How the data were processed

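The deposited data were 4 peak lists, 1 per library (2 WT, 2 KO), in MACS2 narrowPeak layout, none pooled. The submitters' processing notes name MACS2 2.2.7.1, Picard 2.21.4, Bowtie2 2.3.5 and SAMtools 1.9, without settings; no source used here gives the genome build. The fold at each summit is the authors' ratio to the local background. Both −log10 columns, of p and of q, are the authors' deposited values per peak (highest q 0.0489), and the deposited score follows the −log10 q. Fold is the authors' value and was used only within a list, as a percentile.

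Chromosomes 1 to 19, X and Y were kept, and peaks were merged into regions where at least 1 bp overlapped. A region or gene takes its strongest peak in each library. Gene boundaries are from a RefSeq table of GRCm38.p6 without strand (113 genes of alternate scaffolds left out). Fragments at the summit and the background were solved from fold, taken as a ratio with 1 added to both, and −log10 p (tolerance 0.001). Depth itself is not stated in these lists. The library background stands for depth only if settings were alike.

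Values per library were tested by exact permutation, two-sided, over 4 libraries. Counts of regions and protein-coding genes stand beside the share of all regions or genes and have no test. Named were the Hox genes, the 3 strongest and the widest region of each cluster, and every WT-only or KO-only region, apart from items that are not reported here; the 7 regions with KO above WT and the region near Hoxa9 were chosen after their values were seen. Genes of the lists are examples from the top of each list, with some exceptions. Hoxb3os, Mir10a, Mir10b, Isl1, Msx1, Msx2, Cd79b, Blnk and Pecam1 were chosen after their values were seen. Members and lists were chosen with earlier results of these data known. Alternatives were other windows, peak midpoints, 50% overlap, gaps of up to 500 bp, a fold of at least 6, lists of equal length, percentiles of −log10 q, mean width, leaving out each library, a replicate block and leaving out Evx2. The merging code was run on 2000 simulated regions, with 100% of calls recovered. These regions lay well apart and held no repeated peak of a library. The run checks the code and not the merging of close or many-peak regions in these data. Python 3.11.15, numpy 2.4.6, pandas 2.3.3, scipy 1.17.1 and matplotlib 3.10.9 were used.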

Additional observations from a re-analysis of the deposited data

How the results depend on the processing

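Over 92 alternatives for 8 results, no library value could pass the threshold, since the smallest exact p was 0.333. The KO minus WT difference in Hox peaks ranged from -2.5 to 16.5 when each library was left out, negative only without WT replicate 2. For genes with a boundary peak the range was -2 to 5, for the median percentile -0.217 to 7.54 and for width 86.75 to 121.25 bp. The percentile difference was -8.16 at a fold of at least 6. Width kept its direction under all 13 alternatives, among them replicate blocks, which could not change it. But the genotypes overlapped with lists of equal length (80.5 bp) and at a fold of at least 6 (35.75 bp). With lists of equal length the difference was 8 peaks, 3 genes and 9.10 points. The gene difference was 0 at a boundary distance of 2 kb and at the starts of the promoter table. Regions in all libraries numbered 3 at a fold of at least 6 and 25 to 32 without each library. KO-only regions numbered 0 at a fold of at least 6, 1 with lists of equal length, 1 with a 5 kb window and 3 to 10 without each library. WT-only regions numbered 0 in those same settings, 0 without Evx2 and 1 to 6 without each library. Shared regions with both KO above both WT numbered 7 to 16 without each library. Leaving out a library loosens all of these region rules, so the counts could rise or hold and are no check of them. The cause was not tested. The labels number the replicates but do not pair them. With replicate number as a block the differences are the same by construction, at 7 peaks, 1.5 genes, 3.66 points and 104 bp. The exact sign-flip p was 1, 1, 1 and 0.5 (smallest 0.5). Over all regions shared by the 4 libraries, deviations of WT replicate 1 and KO replicate 1 correlated at -0.202. Crossing the numbers likewise gave 0 calls, which the smallest p of 0.5 fixed beforehand. Whether the replicates pair was therefore not decided. All 7 regions in 3 libraries lacked WT replicate 2. The part of depth was not tested. KO replicate 1 and WT replicate 2, of similar background (2.49 and 2.29 fragments), had 45 and 29 Hox peaks. With lists of equal length there were 31 and 29 Hox peaks in WT replicates 1 and 2. The KO replicates 1 and 2 then had 45 and 31.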

Other observations

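Homeobox genes outside the clusters were set beside the Hox genes. Of 38 such developmental genes, 22 (57.9%) had a boundary peak in all 4 libraries (55.4% of all protein-coding genes), 10 in some and 6 in none, and the median of their mean percentile was 45.1, beside 50.5 for the 14 Hox genes and 82.9 for all protein-coding genes of that class. Isl1, a heart and motor neuron factor, lay at 82.9, 71.8, 73.6 and 79.8 in WT replicates 1 and 2 and KO replicates 1 and 2. Msx1, a factor of limb and craniofacial growth, lay at 72.1, 64.9, 52.5 and 70.3, and Msx2 at 49.4, 18.6, 55.9 and 71.1. Both KO values lay above both WT values at 3 of the 22 and below at 1, against 12.6% and 11.8% of all protein-coding genes with a boundary peak in all libraries. Evx2, the neighbour of Hoxd13, had a boundary peak in WT replicate 1 (16.8) and KO replicate 2 (7.43), although the region inside the gene was present in all libraries. The 3 examples after the counts were chosen after their values were seen.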
